A study of Mus musculus with 6 samples.

Results

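The genes described here serve the folding, processing and export of procollagen: the chaperone Serpinh1, the prolyl isomerases Fkbp10, Fkbp14 and Ppib, the hydroxylase partner Crtap, the extracellular processing genes Pcolce and Bmp1, the export receptor Mia3 and the transcription factors Creb3l1 and Creb3l2. They were chosen by name, with earlier results of these data known. Every probe set that the array annotation gives to 1 of these symbols was read. Of the 10 genes, 9 had a probe set, 19 in all, and these 9 were among the 12726 genes tested. Fkbp10 is not analysed here. A signal filter removed 2 of the 19 probe sets.

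The signals came from 6 Affymetrix mouse genome arrays, each of total RNA from primary chondrocytes grown from the rib cartilage of newborn mice. On 3 arrays the cells were wild-type, and on 3 they came from Slc39a13-KO mice, which lack the zinc transporter Slc39a13 in every tissue. In these mice a Neo cassette, introduced in R1 ES cells, takes the place of several exons of the gene. No treatment or strain is given for these cultures, and no source used here says whether the 3 samples of a group came from separate animals. Sex-linked signals, given below, placed arrays of both sexes in each group, so the samples of a group were not all from the same animal. Whether those of the same sex were is not known. The p-values measure the spread between these samples, which may be partly technical. Signals are on the linear scale of the deposited table, and all tests were made on log2(signal + 7.96). The 95% intervals are not adjusted for the number of genes.

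Procollagen chains are made in the endoplasmic reticulum (ER), where prolyl isomerases and hydroxylases act on the chains before and while the triple helix forms. Serpinh1, also known as HSP47, binds the folded helix, and Mia3, also known as TANGO1, recruits the COPII coat so that the long molecule can leave. Outside the cell, Bmp1 cuts off the carboxy-terminal propeptide with the help of Pcolce, and in skeletal cells the membrane-bound factors Creb3l1 and Creb3l2 are released by site proteases and turn on secretory pathway genes.

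Slc39a13 itself gave signals of 901, 1081 and 991 in wild-type replicates 1 to 3 and 100, 196 and 165 in KO replicates 1 to 3, and was lower in KO cells (log2 fold change -2.67, SE 0.22, adjusted p = 0.000189 with limma). Where its probe set lies relative to the replaced exons was not examined. The array labelled KO replicate 1 stood apart from the rest: its correlations with the other arrays were 0.947 to 0.957, against 0.965 to 0.983 among the other 5, and its median signal was 108 against 80.7 to 88.4. Signals of Xist and of Y-linked genes placed wild-type replicate 3 and KO replicate 2 in females and the other 4 arrays in males, so a value within males compares 2 arrays with 2 and a value within females 1 with 1. Member values without KO replicate 1 and within each sex are given with the results.

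The upstream sequence of the members was examined in RefSeq promoters of the mouse assembly GRCm38.p6, of which 8 belong to 7 members. The promoters of Bmp1 and Creb3l1 are not shown. Printed below are the 250 bases before the start site, 5′ to 3′ on the gene's strand. Fkbp14 and Creb3l2 are the members with a printed promoter that were higher in KO cells. Ppib is shown because its probe sets differ in their call, and Serpinh1 because the value of its brightest probe set was near 0. Capitals mark ACGTG (the core that unfolded protein response factors bind), TGACGT (the core of the cyclic AMP response element) and CCAAT, on either strand. TGACGTG would hold both of the first motifs.
Fkbp14 (chr6:54593175-54593424, minus strand): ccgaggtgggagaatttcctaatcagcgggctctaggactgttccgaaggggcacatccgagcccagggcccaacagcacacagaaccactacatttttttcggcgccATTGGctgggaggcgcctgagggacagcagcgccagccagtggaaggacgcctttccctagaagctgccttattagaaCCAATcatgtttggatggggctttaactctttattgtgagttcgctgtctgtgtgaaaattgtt
Creb3l2 (chr6:37442149-37442398, minus strand): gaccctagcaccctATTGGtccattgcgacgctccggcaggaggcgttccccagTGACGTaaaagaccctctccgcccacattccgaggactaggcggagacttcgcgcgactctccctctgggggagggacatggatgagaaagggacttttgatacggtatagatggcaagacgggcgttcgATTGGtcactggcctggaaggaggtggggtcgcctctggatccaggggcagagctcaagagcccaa
Ppib (chr9:66059919-66060168, plus strand): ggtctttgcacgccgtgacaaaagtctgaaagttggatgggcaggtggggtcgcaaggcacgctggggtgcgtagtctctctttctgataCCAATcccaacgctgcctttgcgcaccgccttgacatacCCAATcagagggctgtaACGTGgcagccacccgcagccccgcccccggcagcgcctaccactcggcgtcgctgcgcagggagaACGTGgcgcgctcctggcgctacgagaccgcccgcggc
Serpinh1 (chr7:99353240-99353489, minus strand): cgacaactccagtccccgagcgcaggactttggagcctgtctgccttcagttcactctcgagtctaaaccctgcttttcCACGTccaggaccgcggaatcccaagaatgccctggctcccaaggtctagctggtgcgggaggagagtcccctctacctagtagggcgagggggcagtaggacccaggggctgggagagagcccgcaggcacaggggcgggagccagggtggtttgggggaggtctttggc

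ACGTG stood in 3 of the 8 member promoters, those of Serpinh1, Ppib and Mia3, and in 16.6% of all 32851 promoters of this length. TGACGT stood in 2, those of Mia3 and Creb3l2, against 6.47% of all, and CCAAT in 4, against 33.8%. In Mia3, TGACGT lay 86 to 81 and ACGTG 84 to 80 bases upstream, so these matches overlapped as TGACGTG. The full element TGACGTCA (1.55% of all), the longer TGACGTGG (0.563%) and the ER stress element, CCAAT and CCACG set 9 bases apart (0.113%), had no match in these 8 windows on either strand. A match describes the letters only. In the promoter of Fkbp14 shown, CCAAT lay 142 to 138 bases upstream on the minus strand of the gene and 64 to 60 bases upstream on its plus strand, and the other promoter of Fkbp14 held none of the motifs. In Ppib, ACGTG lay 104 to 100 and 38 to 34 bases upstream.

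In KO cells 3 of the 9 member genes were higher than in wild-type cells, namely the transcription factors Creb3l1 and Creb3l2 and the isomerase Fkbp14. None was lower, and 6 did not pass (limma, Benjamini-Hochberg over all 12726 genes, threshold 0.05). Among all genes tested, 4.64% were higher and 4.65% lower by the same rule. As the members were chosen with earlier results of these data known, such comparisons with all genes or probe sets are a description. The median log2 fold change of the 9 members was 0.29 against 0.012 over all genes. All 9 values were above 0, against 8 under quantile normalization and 7 under median centring, where Serpinh1 turned in both and Mia3 in the latter. At an unadjusted limma p of 0.05, 5 members were higher and 0 lower, where 12.7% of all genes were higher and 12.4% lower. With the methods' t-test after adjustment 0 members were called in either direction, and 0.322% of all genes were higher and 0.346% lower. For 6 of the 9 members, the lowest KO signal lay above the highest wild-type signal, and the corresponding share of all genes was 16.0%, with 14.9% for the opposite order.

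**Figure D1:**
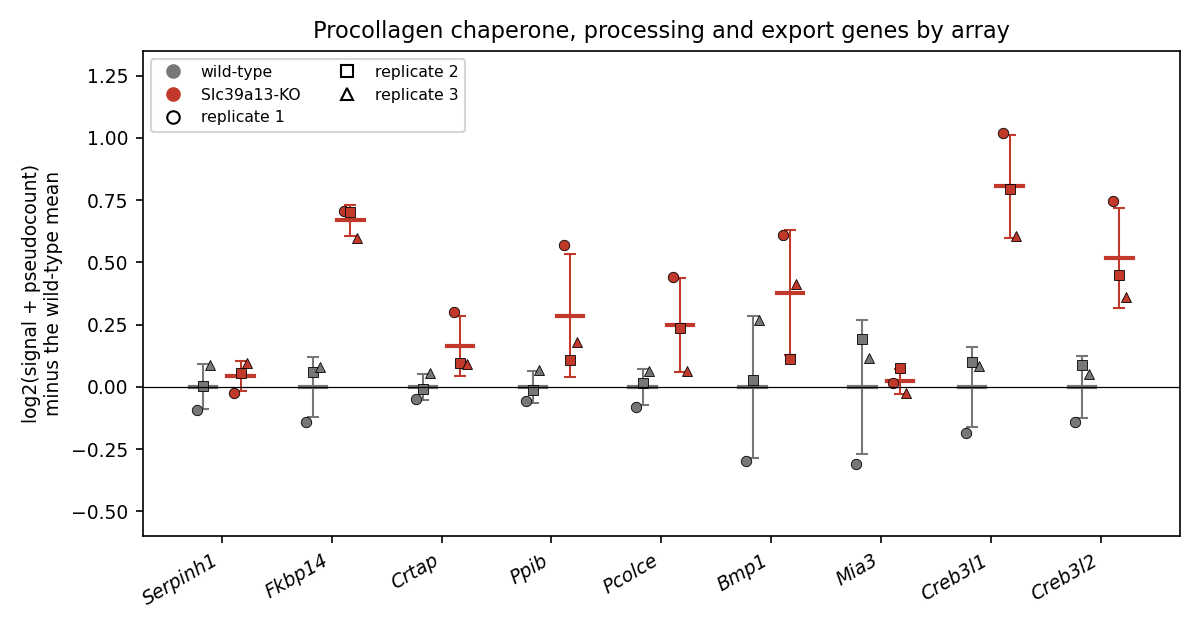
Log2(signal + 7.96) of each of the 9 member genes (brightest probe set) on every array, minus the mean of the wild-type arrays, in grey for wild-type and red for KO, with the replicate as the symbol, the group mean as a bar and the SD (n = 3) as whiskers. Creb3l1, Creb3l2 and Fkbp14 have all KO points well above the wild-type points, those of Serpinh1, Mia3 and Bmp1 overlap, and the circle of KO replicate 1 is the highest point for 7 of the 9.

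Creb3l1, also known as OASIS, is a transcription factor that is anchored in the ER membrane and is known to drive collagen I expression in osteoblasts. Its probe set 1419295_at read 683, 835 and 825 in wild-type replicates 1 to 3 and 1583, 1353 and 1187 in KO replicates 1 to 3. Every KO array lay above every wild-type array, with KO replicate 1 the highest. The means were 781 ± 85.1 in wild-type and 1374 ± 199 in KO cells (SD, n = 3), a ratio of 1.76, and the change passed the test (log2 fold change 0.81, SE 0.13, 95% interval 0.52 to 1.09, adjusted p = 0.00494 with limma). Without KO replicate 1 the log2 difference was 0.70, and it was 0.85 among the male arrays and 0.71 between the female ones.

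Creb3l2, also known as BBF2H7, is a related factor that is known to switch on the COPII gene Sec23a in cartilage. Its brightest probe set, 1452381_at, read 1240, 1456 and 1422 in wild-type replicates 1 to 3 and 2302, 1873 and 1762 in KO replicates 1 to 3. Again the groups did not overlap, and KO replicate 1 was the highest array. The means were 1373 ± 116 in wild-type and 1979 ± 285 in KO cells (SD, n = 3), a ratio of 1.44, and the change passed the test (log2 fold change 0.52, SE 0.11, 95% interval 0.27 to 0.77, adjusted p = 0.0203 with limma). The other probe set, 1437396_at, read 733, 712 and 678 in wild-type replicates 1 to 3 and 841, 879 and 854 in KO replicates 1 to 3. Its groups also lay apart, with a smaller difference that did not pass over all 23309 probe sets (log2 fold change 0.28, SE 0.095, 95% interval 0.064 to 0.49, adjusted p = 0.119 with limma). The call of Creb3l2 was lost when any single wild-type array was left out (adjusted p = 0.0887 without replicate 1, 0.0564 without replicate 2 and 0.0577 without replicate 3 with limma), while its log2 fold change kept a value of 0.41 to 0.60 when any 1 of the 6 arrays was left out. Without KO replicate 1 the difference was 0.41 on the log2 scale, and it was 0.58 among male and 0.40 between female arrays.

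Fkbp14 is an ER prolyl isomerase that acts on procollagen and whose loss causes a form of Ehlers-Danlos syndrome. Its probe set 1433481_at read 1719, 1976 and 2001 in wild-type replicates 1 to 3 and 3097, 3089 and 2869 in KO replicates 1 to 3. The KO arrays lay close together and above all wild-type arrays, and wild-type replicate 1 was the lowest. The means were 1898 ± 156 in wild-type and 3018 ± 129 in KO cells (SD, n = 3), a ratio of 1.59, and the change passed the test (log2 fold change 0.67, SE 0.086, 95% interval 0.48 to 0.86, adjusted p = 0.00192 with limma). The difference was 0.65 on the log2 scale without KO replicate 1, 0.69 among male and 0.62 between female arrays. The dim probe set 1458225_at fell under the filter, with 64.1, 31.5 and 31.2 in wild-type replicates 1 to 3 and 29.1, 54.1 and 59.2 in KO replicates 1 to 3.

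The calls of Creb3l1 and Fkbp14 were both kept in 17 of 19 alternative settings and that of Creb3l2 in 12. Median centring ended the call of Fkbp14 (adjusted p = 0.0746 with limma) and leaving out the trend in limma that of Creb3l1 (adjusted p = 0.0582). The methods' t-test called neither (adjusted p = 0.0662 for Fkbp14 and adjusted p = 0.104 for Creb3l1).

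Ppib and Crtap, with P3h1, form the complex that hydroxylates a proline of collagen I. Ppib, cyclophilin B, had a brightest probe set, 1450911_at, of 18490, 19094 and 20172 in wild-type replicates 1 to 3 and 28533, 20767 and 21820 in KO replicates 1 to 3. All KO arrays lay above all wild-type arrays, and KO replicate 1 was far above the other KO arrays. The change did not pass (log2 fold change 0.29, SE 0.12, 95% interval 0.025 to 0.55, adjusted p = 0.162 with limma). The other probe set, 1437649_x_at, read 16085, 16288 and 16863 in wild-type replicates 1 to 3 and 24376, 19635 and 20565 in KO replicates 1 to 3. There the groups also lay apart and the difference passed over all probe sets (log2 fold change 0.39, SE 0.094, 95% interval 0.18 to 0.59, adjusted p = 0.0393 with limma). A probe set of Ppib was called in 8 of 18 alternative settings. The call of 1437649_x_at was lost, among others, without the filter (adjusted p = 0.0773 with limma), with sex as a covariate (adjusted p = 0.0691), with a replicate block (adjusted p = 0.0937) and without wild-type replicate 1, 2 or 3 (adjusted p = 0.134, 0.165 and 0.107). Without KO replicate 1 the difference of 1450911_at was 0.15 on the log2 scale, against 0.57 for KO replicate 1 alone, and it was 0.41 among male and 0.042 between female arrays.

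Crtap, the non-enzymatic partner in this complex, has 1 probe set, 1448592_at, which read 5008, 5151 and 5390 in wild-type replicates 1 to 3 and 6387, 5544 and 5521 in KO replicates 1 to 3. The groups did not overlap, but KO replicate 1 was clearly the highest and the others lay just above the wild-type arrays. The difference did not pass (log2 fold change 0.16, SE 0.082, 95% interval -0.018 to 0.35, adjusted p = 0.247 with limma). It was 0.23 on the log2 scale among male and 0.041 between female arrays. P3h1, the hydroxylase of the complex and no member here, was higher in KO cells, at 1759 ± 48.5 in wild-type and 2811 ± 487 in KO cells (SD, n = 3), a difference on the log2 scale of 0.66 (adjusted p = 0.00693) with limma.

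Serpinh1, the collagen-specific chaperone, had a brightest probe set, 1450843_a_at, of 24385, 26025 and 27639 in wild-type replicates 1 to 3 and 25564, 27042 and 27785 in KO replicates 1 to 3. The groups overlapped and KO replicate 1 was the lowest of the KO arrays. The difference did not pass (log2 fold change 0.044, SE 0.085, 95% interval -0.14 to 0.23, adjusted p = 0.794 with limma), and its direction turned under quantile normalization (-0.083 on the log2 scale), under median centring (-0.051), when wild-type replicate 1 was left out (-0.0021) and between the female arrays (-0.031, against 0.081 among males). The other probe set, 1456733_x_at, read 19496, 21223 and 22910 in wild-type replicates 1 to 3 and 33031, 24899 and 22519 in KO replicates 1 to 3. Here KO replicate 1 was far above all others, KO replicate 3 lay within the wild-type range, and the difference did not pass over all probe sets (log2 fold change 0.32, SE 0.13, 95% interval 0.022 to 0.62, adjusted p = 0.19 with limma).

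Pcolce, the enhancer of the carboxy-terminal proteinase, had a brightest probe set, 1437165_a_at, of 14830, 15844 and 16360 in wild-type replicates 1 to 3 and 21288, 18463 and 16376 in KO replicates 1 to 3. KO replicate 3 barely exceeded wild-type replicate 3, and KO replicate 1 was the highest. The difference did not pass (log2 fold change 0.25, SE 0.10, 95% interval 0.02 to 0.48, adjusted p = 0.163 with limma), although it passed when KO replicate 3 was left out (adjusted p = 0.0421 with limma). Among male arrays it was 0.28 on the log2 scale and between female arrays 0.17. The second probe set, 1448433_a_at, read 4487, 5448 and 5744 in wild-type replicates 1 to 3 and 5253, 4820 and 4088 in KO replicates 1 to 3. It ran the other way without passing (log2 fold change -0.15, SE 0.12, 95% interval -0.41 to 0.12, adjusted p = 0.505 with limma), so the probe sets of Pcolce disagree in direction.

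Bmp1, the proteinase that removes the carboxy-terminal propeptide, read 192, 243 and 288 in wild-type replicates 1 to 3 and 367, 258 and 319 in KO replicates 1 to 3 with its brightest probe set, 1426238_at. KO replicate 2 fell inside the wild-type range, and wild-type replicate 1 was the lowest array. The difference did not pass (log2 fold change 0.38, SE 0.20, 95% interval -0.068 to 0.83, adjusted p = 0.277 with limma). It was 0.65 on the log2 scale among male arrays and -0.16 between female arrays. The probe set 1427457_a_at read 123, 129 and 147 in wild-type replicates 1 to 3 and 174, 166 and 143 in KO replicates 1 to 3, with overlapping groups and a difference that did not pass (log2 fold change 0.26, SE 0.22, 95% interval -0.22 to 0.75, adjusted p = 0.512 with limma). The probe set 1427458_at fell under the filter, with signals of 9.31, 12.1 and 11.7 in wild-type replicates 1 to 3 and 6.76, 12.8 and 12.7 in KO replicates 1 to 3.

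Mia3, the export receptor for collagen, had a brightest probe set, 1455066_s_at, of 1573, 2232 and 2111 in wild-type replicates 1 to 3 and 1972, 2055 and 1917 in KO replicates 1 to 3. The wild-type arrays spread more widely than the KO arrays, and the KO arrays lay inside the wild-type range. The difference did not pass (log2 fold change 0.023, SE 0.12, 95% interval -0.25 to 0.30, adjusted p = 0.934 with limma), and its direction turned under median centring (-0.072 on the log2 scale) and without wild-type replicate 1 (-0.13) or KO replicate 2 (-0.0039), and between the female arrays (-0.039, against 0.053 among males). The other 3 probe sets of Mia3 did not pass either. For 1434698_at the difference was 0.081 on the log2 scale (adjusted p = 0.711 with limma), for 1459984_at 0.080 (adjusted p = 0.777) and for the dim 1459070_at 0.20, with an interval of -0.77 to 1.17.

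Over all 17 member probe sets past the filter, 4 were higher in KO cells, 0 lower and 13 did not pass with limma over 23309 probe sets. The 4 were those of Fkbp14 and Creb3l1 and 1 each of Ppib and Creb3l2. Over all probe sets 3.44% were higher and 3.36% lower. At an unadjusted limma p of 0.05, 8 member probe sets were higher and 0 lower, against 11.6% and 11.0% of all probe sets. With the methods' t-test after adjustment 0 were called in either direction, against 0.193% higher and 0.167% lower over all. Their median log2 fold change was 0.26, and 16 of 17 were above 0. Groups did not overlap, with KO higher, for 8 of 17, where all probe sets gave 15.1% in this direction and 13.7% in the other.

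**Figure D2:**
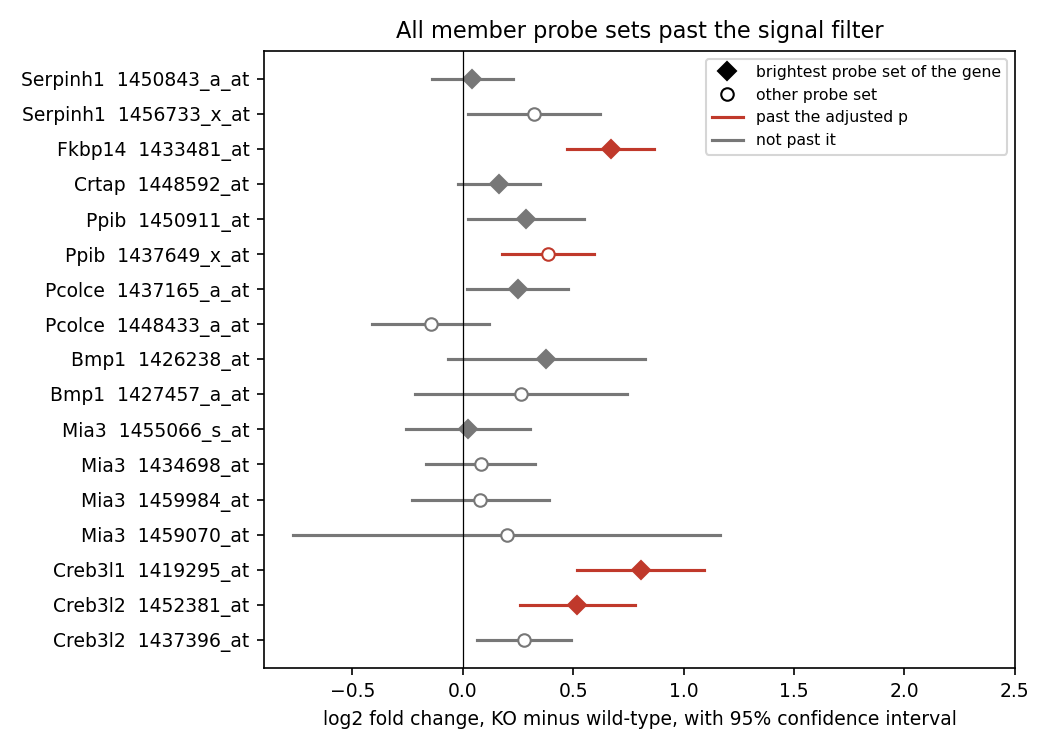
Log2 fold change (KO minus wild-type) of the 17 member probe sets with 95% confidence intervals from limma, filled diamonds for the brightest probe set of a gene and open circles for others, red where the adjusted p was under 0.05. Fkbp14, Creb3l1 and 1 probe set each of Creb3l2 and Ppib are red, and all of Mia3 lie near 0 or have wide intervals.

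Arrays contributed unevenly. Wild-type replicate 1 had the lowest signal of all 6 arrays for 9 of the 9 members, and KO replicate 1 the highest of all for 7. Without KO replicate 1 the median log2 fold change of the members was 0.15 (-0.0004 over all genes). The same 3 members were higher in KO cells without it, namely Creb3l1, Creb3l2 and Fkbp14. Among the members that did not pass, the difference without it was 0.15 on the log2 scale for Ppib and for Pcolce, 0.095 for Crtap and 0.26 for Bmp1, and KO replicate 1 alone differed from the wild-type mean by 0.57, 0.44, 0.30 and 0.61. For Serpinh1 the difference was 0.077 without KO replicate 1 and -0.023 for KO replicate 1 alone, and for Mia3 it was 0.026 and 0.017.

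Within each array, the 3 called members were also set against Serpinh1 and Mia3, as pairs chosen after their values were seen and so with no test. The log2 signal of Creb3l1 relative to that of Serpinh1 was 0.76 higher in KO than in wild-type cells, and relative to that of Mia3 it was 0.78 higher. For Fkbp14 these differences were 0.63 and 0.65, and for Creb3l2 they were 0.48 and 0.50. All KO arrays lay above all wild-type arrays in each of the 6 pairs, but this largely restates the calls. Serpinh1 and Mia3 were the members with changes nearest 0, and for Serpinh1 the brightest probe set was used. The other Serpinh1 probe set, 1456733_x_at, had a log2 fold change of 0.32.

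Other genes along the same pathway were read from 8 lists. Of their 74 tested genes, 23 were higher in KO cells (31.1%, against 4.64% of all genes tested), 0 lower and 51 did not pass with limma, and their median log2 fold change was 0.25. The lists were drawn up with results of these data known, so their direction is a description. The counts depended on the fit. Without the trend in limma, 1 fibrillar chain and 1 gene of hydroxylation and glycosylation were higher. So were 2 other ER prolyl isomerases and 2 general ER chaperones, and no gene of the remaining lists. With the methods' t-test after adjustment, 1 isomerase and 1 general chaperone were higher and no other listed gene, against 0.322% of all genes.

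Among the 10 fibrillar procollagen chains, 6 were higher, 0 lower and 4 did not pass, with a median of 0.56. Col11a2 and Col5a1, chains of the minor fibrillar collagens, changed by 0.91 (adjusted p = 0.00248) and 0.82 (adjusted p = 0.000751) on the log2 scale with limma. Col1a1 and Col1a2, the chains of collagen I, had 0.69 (adjusted p = 0.0301) and 0.59 (adjusted p = 0.021). Without KO replicate 1, 5 chains were higher, without wild-type replicate 1 it was 3, without wild-type replicate 2 it was 2, and after median centring 2.

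Among 14 genes of procollagen hydroxylation and glycosylation, 5 were higher, 0 lower and 9 did not pass, with a median of 0.25. Besides P3h1, they included the lysyl hydroxylases Plod3, at 0.60 (adjusted p = 0.00368), and Plod2, at 0.54 (adjusted p = 0.00385), and P3h4, a partner in the lysyl hydroxylation complex, at 0.45 (adjusted p = 0.0099), all log2 fold changes with limma. After median centring 0 of the 14 passed, and without wild-type replicate 1 or 3 it was 3. Of the 5 other ER prolyl isomerases, 2 were higher and 0 lower, namely Fkbp11, at 0.79 (adjusted p = 0.00124), and Fkbp7, at 0.74 (adjusted p = 0.000457), and the median was 0.23. Both passed after median centring and without KO replicate 1.

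Of the 15 general ER chaperones, 6 were higher, 0 lower and 9 did not pass, with a median of 0.30. The largest changes were those of Creld2, at 0.89 (adjusted p = 0.000525), Sdf2l1, at 0.76 (adjusted p = 0.00123), Hyou1, at 0.75 (adjusted p = 0.0249), and Dnajb11, at 0.70 (adjusted p = 0.00412), as log2 fold changes with limma. Of the 15 log2 fold changes 13 were above 0. Canx, named after its values were seen, stood at -0.25 (adjusted p = 0.137 with limma), with all KO arrays below all wild-type arrays. After median centring 2 of the 15 passed. Of the 4 lysyl oxidases tested, 1 was higher, Lox, the enzyme that crosslinks collagen, at 0.72 (adjusted p = 0.00393), and 0 were lower, with a median of 0.097. Loxl4, named after its values were seen, stood at -0.44 (adjusted p = 0.0614) with all KO arrays below all wild-type arrays, and 1 gene of the list was lower with sex as a covariate or without wild-type replicate 1.

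In the COPII coat and large cargo export list, 3 of 16 were higher, 0 lower and 13 did not pass, with a median of 0.076. They were the GTPases Sar1a, at 0.48 (adjusted p = 0.00929), and Sar1b, at 0.40 (adjusted p = 0.0192), and the coat protein Sec31a, at 0.32 (adjusted p = 0.0365). Of the 16 log2 fold changes 11 were above 0. Sec24c, named after its values were seen, stood at -0.27 (adjusted p = 0.18 with limma), with all KO arrays below all wild-type arrays. Sec23a, named here after its values were seen, stood at 6528 ± 121 in wild-type and 6536 ± 329 in KO cells (SD, n = 3), with a log2 fold change of 0.00071 and an interval of -0.16 to 0.16. After median centring or without wild-type replicate 2, 0 of the 16 passed, without wild-type replicate 3 it was 1, and after median centring the median of the list was -0.019.

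Among the 6 tested genes for other OASIS family members, site proteases and unfolded protein response factors, 0 passed with limma in either direction, 0 had an unadjusted p under 0.05 and 0 passed the methods' t-test after adjustment. Mbtps1, the site-1 protease that cleaves Creb3l1 and Creb3l2, stood at 0.18 (adjusted p = 0.221) on the log2 scale, and Xbp1, an unfolded protein response factor, 0.16 (adjusted p = 0.249). Of 4 other procollagen proteinases and enhancers, 0 passed in either direction with limma or the methods' t-test after adjustment and 1 was higher at an unadjusted p of 0.05. Adamts3, an amino-terminal procollagen proteinase, had 0.51 (adjusted p = 0.153), and Sfrp2, described as an enhancer of Bmp1, 0.82 (adjusted p = 0.24).

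**Figure D3:**
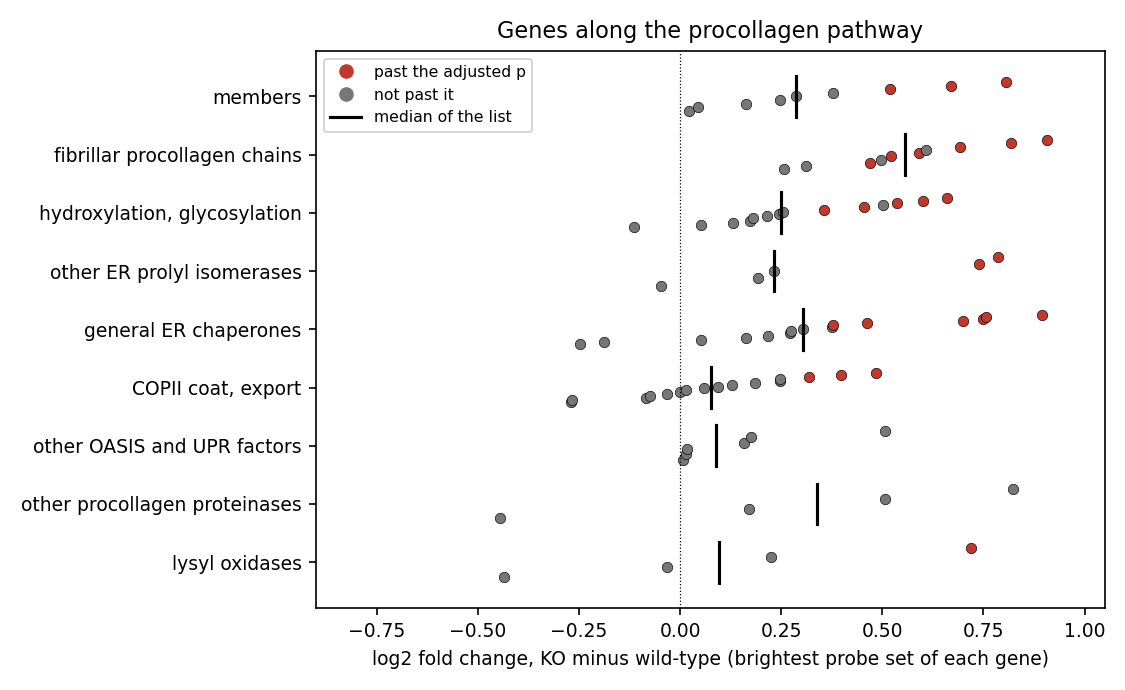
Log2 fold change (KO minus wild-type, brightest probe set) of every tested gene of the members and of 8 pathway lists, red where the adjusted p was under 0.05, with the median of each list as a vertical bar. The fibrillar procollagen chains have the highest median, 0.56, and no gene of these lists is red to the left of 0.

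Markers of the cells that such a culture could hold moved as well, and in bulk cultures fewer cells of a type and less RNA per cell cannot be told apart. Genes in this paragraph outside the lists above are named after their values were seen. Of 8 chondrocyte markers 4 were higher and 0 lower in KO cells (Col11a2, Acan, Comp and Col9a1), with summed signals of 70365 to 85213 in wild-type and 102486 to 143720 in KO arrays. Col2a1, the defining marker of the labelled cell type, was present on every array, at 29852 to 37220 in wild-type and 40475 to 62818 in KO cells, a difference that did not pass (adjusted p = 0.0834 with limma). The other chondrocyte markers that did not pass were Matn1, at -0.40 on the log2 scale, Sox9, at 0.045, and Hapln1, at 0.13. Of 9 fibroblast and perichondrium markers 5 were higher and 2, Thy1 and Pdgfra, lower (52529 to 64038 and 73697 to 94486). Of 6 listed osteoblast markers, Bglap and Spp1 were matched to no probe set and Dmp1 lay under the filter. Of the 3 tested 2, Ibsp and Alpl, were higher (952 to 1457 and 2005 to 2995). Sp7, at 0.59 on the log2 scale, did not pass (adjusted p = 0.136 with limma). Of 6 mesothelial markers 5, Msln, Upk3b, Upk1b, Krt19 and Lrrn4, were lower (2701 to 4730 and 315 to 692). The fibroblast list and the fibrillar chains share Col1a1, Col1a2 and Col3a1, and the chondrocyte list shares Col2a1 and Col11a2 with them. Of 5 macrophage markers 1, Cd14, was lower (609 to 797 and 527 to 807), of 4 muscle markers 1, Tnnt3, was higher and 1, Acta1, lower (1944 to 2070 and 2173 to 2582), and the only endothelial marker tested, Kdr, did not pass (59.4 to 118 and 71.8 to 146), with Pecam1, Cdh5, Tek and Emcn under the filter. The muscle markers Myh3 and Myog also lay under it. Without wild-type replicate 1 or 2 the fibroblast count became 2 higher and 0 lower and no muscle marker was lower, without KO replicate 2 the fibroblast count was 2 and 2, and 1 osteoblast marker was higher without wild-type replicate 1. Cd14 passed in none of the fits that left out 1 wild-type array. Lyz2, another macrophage marker, ran the other way without passing (adjusted p = 0.102 with limma). Its signals overlapped, at 76.9 to 157 in wild-type and 137 to 330 in KO arrays. With sex as a covariate or without KO replicate 2, 1 macrophage marker was higher and 0 were lower. After median centring 3 chondrocyte markers were higher, 5 mesothelial markers were lower and no fibroblast or osteoblast marker was called, and without the trend in limma no chondrocyte, fibroblast or osteoblast marker was called and 3 mesothelial markers were lower. The part of these shifts in the members' values was not tested.

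Creb3l1 lies on the same chromosome as Slc39a13, with 20 annotated protein-coding genes between them in the gene order of GRCm38.p6. Of the 19 of these that were tested, 0 passed with limma, 0 had an unadjusted p under 0.05 and 0 passed the methods' t-test after adjustment. Their log2 fold changes ran from -0.87 to 0.54 with a median of 0.0020. Beyond Slc39a13 and beyond Creb3l1, 42 annotated genes in all were taken in equal numbers, and 27 were tested. Of these, 2, Nup160 and Ext2, passed with limma (named after their values were seen). An unadjusted limma p under 0.05 was found for 8, and 0 passed the methods' t-test after adjustment. Over all genes 4.64% were higher and 4.65% lower with limma, and 12.7% and 12.4% at the unadjusted limma p. The part of sequence carried along with the targeted allele in the value of Creb3l1 was not tested.

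**Figure D4:**
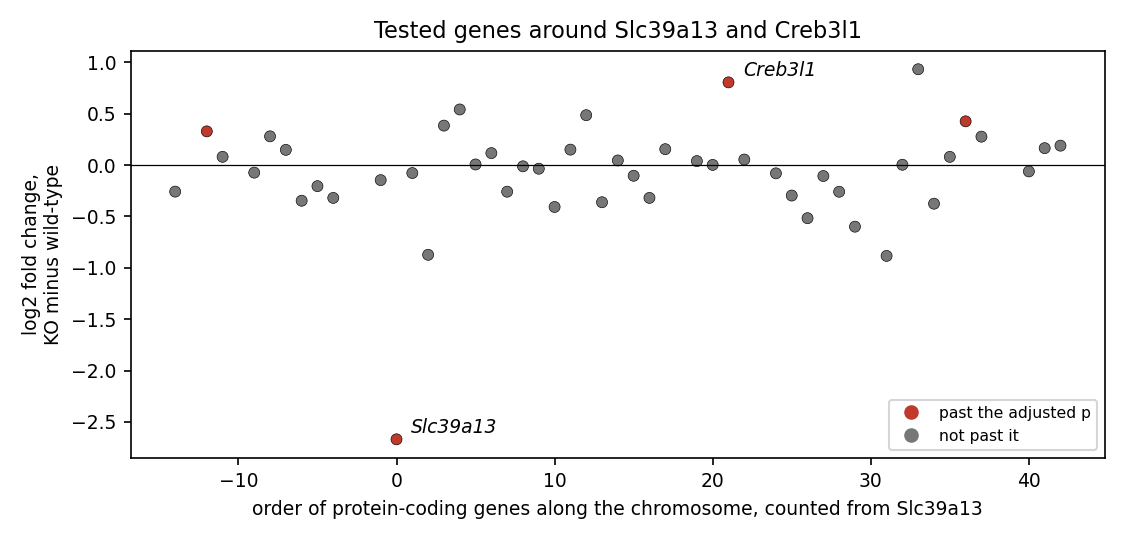
Log2 fold change (KO minus wild-type) of genes around Slc39a13 in their order along the chromosome, counted in genes from Slc39a13, with points in red where the adjusted p was under 0.05. Slc39a13 stands at -2.67 and Creb3l1 at 0.81, and none of the 19 tested genes between them is red.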

How the data were processed

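Total RNA was labelled as biotinylated cRNA and hybridized to 1 array per sample. The deposited signal intensities, 1 per probe set and array on a linear scale, were made by the authors with MAS5 per the labels, whereas their methods name gcRMA. They were used as scaled by the authors. Of 45101 probe sets, 34945 have 1 gene symbol and are no controls. Values were taken as log2(signal + 7.96), where 7.96 is the 10th percentile of all signals, so the changes of dim probe sets are understated. Probe sets with a mean under 5.80 (40th percentile) were left out. Each gene was represented by its brightest remaining probe set, and every probe set was also tested. The difference of KO from wild-type signals was fitted in R 4.3.3 by limma 3.58.1 (lmFit, trended eBayes), with Benjamini-Hochberg adjustment over all genes or probe sets and a threshold of 0.05. The fit was tested on simulated data. With 3 arrays per group, their number limits the precision.

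Members and lists were chosen with earlier results of these data known. All members with every probe set are named, and from each list up to 4 genes past the threshold with the largest change, or, for a list with none, up to 2 of smallest p. Alternatives changed the filter, pseudocount, scaling, probe set choice, covariates, test and arrays.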

Additional observations from a re-analysis of the deposited data

How the results depend on the processing

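The count of 3 member genes higher in KO cells stayed within 1.5 times under most of the 19 alternatives, and 0 were lower in any. Median centring, which moves the median of all genes to -0.083, left 1, limma without its trend 1 and the methods' t-test after adjustment 0. Leaving out 1 array gave 2 to 4. The 4 member probe sets higher in KO cells became 0 under median centring, 0 without the trend, 0 with the methods' t-test after adjustment, 2 with sex as a covariate and 2 to 5 when 1 array was left out, with 2 without any of the wild-type arrays. Deviations of same-numbered arrays correlated at 0.032, 0.018 and -0.067, and differently numbered arrays were not compared. Whether the replicate numbers pair the arrays is therefore not settled. With a replicate block, 2 member genes and 2 member probe sets were higher, and Creb3l2 did not pass (adjusted p = 0.0604 with limma). Slc39a13 kept its log2 fold change of -2.67 but missed the threshold with the methods' t-test after adjustment. The direction of Serpinh1 turned under quantile normalization (-0.083) and median centring (-0.051), and ran from -0.0021 to 0.088 when 1 array was left out. Its highest log2 fold change over the alternatives was 0.18. Mia3 turned under median centring (-0.072) and ran from -0.13 to 0.12 when 1 array was left out. Over all genes, 590 higher and 592 lower became 106 and 228 under median centring and 122 and 142 without the trend. They became 345 and 350 with a replicate block and 453 and 455 with sex as a covariate. Without wild-type replicate 1, 2 or 3 they were 254 and 240, 224 and 199, and 266 and 263. Without 1 KO array, 368 to 778 genes were higher. Over all probe sets, 802 higher became 131 (median centring), 47 (no trend), 415 (replicate block) and 563 (sex as a covariate). Without wild-type replicate 1, 2 or 3 it was 280, 250 and 320. The causes were not tested, and signals near background, such as those of the dim probe sets of Fkbp14 and Bmp1, limit what can be read from them.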
